A study of Mus musculus with 6 samples.

Results

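The svb9 line carries a transgene for splice variant b of 15-LOX2, and its ventral prostate was set against that of wild type mice on 2 of the 6 arrays of the study. These were the arrays whose titles name svb9 against wild type. All animals were FVB mice. The svb9 mice and their wild type controls were 2.5 months old. The other 4 arrays set fl26, a line with the full-length form of 15-LOX2 and also 2.5 months old, and wild type mice of 15 months against young wild type, with 2 arrays each. The question for svb9 was how its expression profile differs from that of wild type mice of the same age.

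Each array was hybridised with RNA from 2 sources. The green dye (Cy3) held young wild type RNA on every array, and the red dye (Cy5) held svb9, fl26 or old wild type RNA. The dyes were not exchanged, so an effect of dye and an effect of genotype cannot be told apart in a ratio against young wild type. A dye effect is shared by the red groups and drops out when svb9 is set against fl26. The sample protocols describe pools of ventral prostates from 3 mice, while the design text speaks of combined lobes of 6 mice and of independent samples for the duplicates. The sources used here do not say whether 1 pool of young wild type RNA served several arrays. Nor do they name the promoter that drives the transgene, svb9 stands for 1 transgenic line, and the transgene itself was not measured.

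15-LOX2 is a lipoxygenase, an enzyme that adds oxygen to arachidonic acid, and in the human prostate it is made by the luminal epithelium and is often lost in cancer. Its splice variants differ from the full-length protein in part of their sequence. Lipoxygenases compete with cyclooxygenases for arachidonic acid, and their products can act on leukotriene receptors and on PPAR, a family of lipid-sensing nuclear receptors. The ventral lobe of the mouse prostate is a secretory gland whose luminal cells fill the ducts with a few very abundant proteins, over a layer of basal cells and a stroma of smooth muscle and fibroblasts.

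All values are log2 ratios of svb9 over young wild type, so a value of 1 is a doubling and 0 is equality. After removal of control and outlier spots the arrays gave 41174 probes. Of these, 27858 were tested, namely those that were well above background in red, or in green, on both arrays of some group. The red signal was well above background for 27831 probes on svb9 array 1 but for 14617 on svb9 array 2, against 30381 and 27554 in green. The spread of the ratios over probes well above background in both channels on both arrays was also smaller on array 1 (SD 0.17) than on array 2 (SD 0.29). Over all 6 arrays the red signal was well above background for 3218 to 27831 probes, with the lowest number on an old wild type array. Array number limits the precision of every value below.

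Several transcripts listed for the ventral prostate were abundant in the RNA. Sbp, the spermine-binding protein, and Spink1, a secreted protease inhibitor, were saturated in both channels on both svb9 arrays at their brightest probes, which therefore give no usable ratio. A second probe of Spink1, unsaturated, had 0.08 and -0.00. Pbsn, probasin, gave red intensities of 47150 and 26510 on arrays 1 and 2 over backgrounds of 82 and 83. In all, 10 of the 11 measured ventral secretory genes were well above background in both channels on both arrays. Pbsn was also on the list for other lobes and the seminal vesicle, so it counts in both lists. The seminal vesicle genes Svs2, Svs3a, Svs4, Svs6 and Pate4 were well above background in neither channel of either svb9 array. Of the secretory genes listed for that gland and for other lobes, 11 were measured. Of these, 7 were well above background in both channels on both arrays, Pbsn, Ceacam10 and Clu included. Svs5, Sva and Wfdc15b were above background in green on both arrays, and Svs1 on 1 array.

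No probe passed the test in svb9 without a block on array number. With limma across all 6 arrays and Benjamini-Hochberg adjustment, 0 of 27858 probes (0%) had an adjusted p under 0.05, and the smallest adjusted p was 0.980. An unadjusted p under 0.05 was found for 1240 probes, or 4.45% of those tested. No array set young wild type against itself, so the spread of such ratios around 0 is not known. With the array number as a block in the same model, limma called 12 probes, 10 higher and 2 lower, each at an adjusted p of 0.0497. They include the probes of Aldh8a1, Bcorl1, Plxna1, Dcaf12l2, Itgb3 and Olfr1410 as higher and that of Dock11 as lower. That the number pairs the arrays was read from these same data and not from the labels. Bcorl1, Itgb3 and Olfr1410 had no value on either old wild type array, so their calls rest on the svb9 and fl26 arrays alone. Unless the block is named, every test below is the one without it. The median limma standard error was 0.0935 (n = 2 arrays), and the median 95% interval reached 0.23 to either side, which is 1.17-fold. For 98.55% of genes the 95% interval lay within 2-fold of wild type.

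The 2 svb9 arrays shared little of their pattern. Of 13723 genes with a symbol and a value on both arrays, 4004 (29.2%) were higher on both, 3870 (28.2%) were lower on both and 5849 (42.6%) had opposite signs. Across probes well above background, which are not independent replicates, the ratios of the 2 arrays correlated with r = 0.196. That correlation was 0.244 without saturated probes, and 0.082 when the probes were cut by brightness into 3 equal sets and the dimmest taken, 0.269 in the middle set and 0.194 in the brightest. The difference in red signal between the arrays stands beside this, and its part in the spread was not tested. The 2 svb9 arrays also differed in the date of feature extraction. Array 1 shared its date with fl26 array 1, and array 2 with old wild type array 2. Between the svb9 arrays, date and array cannot be told apart.

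**Figure D1:**
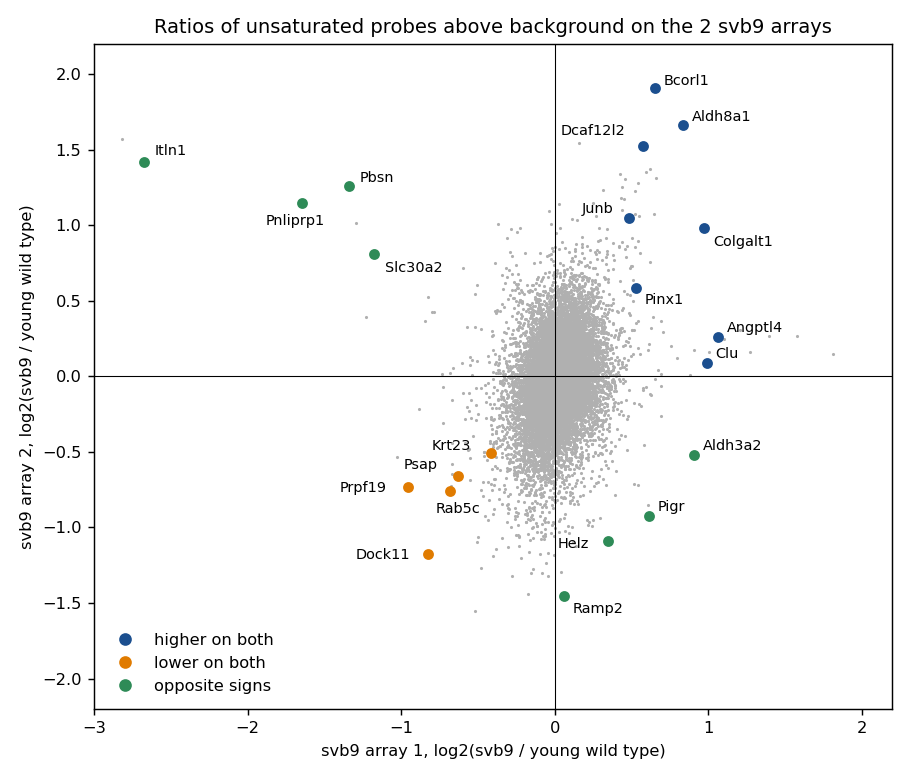
Each grey point is a probe well above background in both channels on both svb9 arrays and not saturated, with its log2 ratio of svb9 over young wild type on array 1 (x axis) and array 2 (y axis). Named genes are coloured by whether they were higher on both arrays, lower on both or of opposite sign. The cloud is wider along array 2 (SD 0.29) than along array 1 (SD 0.17), and Itln1 (-2.68 and 1.42) lies farthest into the quadrant of opposite signs among the named genes.

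A ratio of at least 1.5-fold on both arrays was found for 9 probes higher in svb9 (0.0326%) and 10 probes lower (0.0362%). No probe reached 2-fold on both arrays in either direction, and at 1.25-fold the counts were 86 higher (0.311%) and 101 lower (0.365%). These counts describe the arrays and come with no test. The genes described next are the 10 highest and the 10 lowest, ranked by the array nearer to 0 among probes well above background. They were picked by their svb9 values, so svb9 lying farther from 0 than fl26 follows in part from the choice.

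Colgalt1, a galactosyltransferase that modifies collagen, was the gene highest on both svb9 arrays. Its red intensity was 1752 on array 1 and 309 on array 2 against green intensities of 363 and 227. After normalization the ratios were 0.97 and 0.98, a mean of 0.98 ± 0.14 (limma standard error, n = 2) or 1.97-fold. The fl26 arrays had 0.27 and 0.43, so both svb9 values lay above both fl26 values. The difference of 0.63 between the lines had an adjusted p of 1.0 in limma.

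Aldh8a1, an aldehyde dehydrogenase that acts on retinal, had 0.84 and 1.66 on the svb9 arrays, and Bcorl1, a transcriptional corepressor, had 0.65 and 1.91. Dtx4, a ubiquitin ligase of the Notch pathway, had 0.65 and 1.07. The semaphorin receptor gene Plxna1 had 0.62 and 1.37. In each of these 4 genes array 2 lay above array 1. The olfactory receptor gene Olfr1410 had 0.59 and 1.36, and Dcaf12l2 had 0.58 and 1.52. Izumo4, of the sperm-egg fusion protein family, had 0.55 and 0.90. Itgb3, the beta 3 integrin of platelets and endothelium, had 0.54 and 1.28. Pinx1, an inhibitor of telomerase, closed the group with 0.53 and 0.59, and all 10 genes were farther from 0 on array 2 than on array 1.

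The full-length line had the same sign on both arrays for 9 of these 10 genes. The share of such likeness over all genes was not counted, so the 9 of 10 cannot be set against it. Bcorl1 had 0.69 and 1.63 in fl26, Dcaf12l2 had 0.65 and 1.60, and Itgb3 had 0.61 and 1.40. The svb9 means lay 0.12, -0.08 and -0.10 from the fl26 means. Over the 10 genes the difference between svb9 and fl26 ran from -0.33 for Plxna1 to 0.75 for Pinx1, and 0 of the 10 differences passed the limma test. Pinx1 was the exception in sign, with -0.58 and 0.19 in fl26. The 2 lines share the dye orientation and may share a pool of young wild type RNA, so their likeness is no independent support. Of the 10 genes, 3 had a value on both old wild type arrays and 6 on neither. Plxna1 had 1.62 and 2.03 in old wild type, Aldh8a1 had 1.05 and 1.76, and Colgalt1 had -0.33 and 0.29. Dcaf12l2 had 2.50 on old wild type array 2 and no value on array 1. For Plxna1, Aldh8a1 and Dcaf12l2 a high ratio was thus not particular to the transgenic lines.

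Other probes of these genes mostly did not repeat the ratio. The second probes of Bcorl1, Plxna1 and Pinx1 were well above background in red on 1 array only, so their ratios lie near the floor of the assay. That of Bcorl1 had a mean of -0.08 in svb9, that of Plxna1 -0.07, that of Pinx1 -0.15 and that of Izumo4 -0.04. The other 2 probes of Dtx4 had means of -0.18 and -0.03. For Dtx4 and Izumo4 the other probes were well above background in both channels, and which probe follows the transcript was not tested.

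Dock11, an activator of the small GTPase Cdc42, was the gene lowest on both svb9 arrays. Its ratios were -0.82 and -1.17, with a mean of -0.999 ± 0.11 (n = 2), and limma gave it the smallest unadjusted p of all genes, with an adjusted p of 0.980. A second probe had -0.56 and -0.49, so all 4 values of Dock11 lay below 0. In fl26 the first probe had -0.50 and -0.37, above both svb9 values, while the second had a mean of 0.12.

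Psap encodes prosaposin, the precursor of the lysosomal proteins that help to break down sphingolipids. It had -0.63 and -0.66 on its brightest probe and -0.44 and -0.56 on a second one, a mean of -0.65 ± 0.11 and of -0.50 ± 0.12. The brightest probe gave 0.32 and -0.03 in fl26, and the difference of -0.79 had an adjusted p of 1.0. Of 2018 genes with more than 1 probe well above background, Dock11 and Psap were the 2 whose probes all lay at least 1.2-fold below wild type on both svb9 arrays. No gene had all its probes that far above. This count was chosen after the values were seen.

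Among the other low genes, Prpf19, a splicing factor, had -0.95 and -0.73 on the svb9 arrays. Rab5c, a small GTPase of early endosomes, had -0.68 and -0.76, and Ube2s, which extends ubiquitin chains in mitosis, had -0.67 and -0.73. Ube2s lay lower than in fl26, where the arrays had -0.23 and 0.15. Klf2, a transcription factor, had -0.56 and -0.81, but its red signal was saturated on array 1 and its second probe had a mean of -0.18. The secreted factor gene Nenf had -0.55 and -0.68, Il17re, the receptor subunit for interleukin 17C, had -0.48 and -0.75, and the phosphatase gene Dusp7 had -0.47 and -0.70. Ang5, an angiogenin ribonuclease, had -0.56 and -0.48. Of the 10 low genes, 6 were below 0 on both fl26 arrays as well, and here too the share over all genes was not counted. The differences from fl26 ran from -1.91 for Ang5 to 0.16 for Klf2.

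Besides Dock11 and Colgalt1, the smallest unadjusted p values in svb9 belonged to a keratin, a mitochondrial carrier and a secreted protein. Krt23 had -0.42 and -0.51 (mean -0.46 ± 0.07), and the fl26 arrays had -0.54 and -0.42. Slc25a46 had 0.49 and 0.54 (mean 0.51 ± 0.07) against 0.69 and 0.69 in fl26, and its other 2 probes had means of 0.00 and 0.03. Fgl1 had 0.50 and 0.73 (mean 0.61 ± 0.09) against 0.57 and 0.54 in fl26, and its second probe, well above background in red on neither array, had a mean of -0.07. The svb9 means differed from those of fl26 by 0.02 for Krt23, -0.18 for Slc25a46 and 0.06 for Fgl1.

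**Figure D2:**
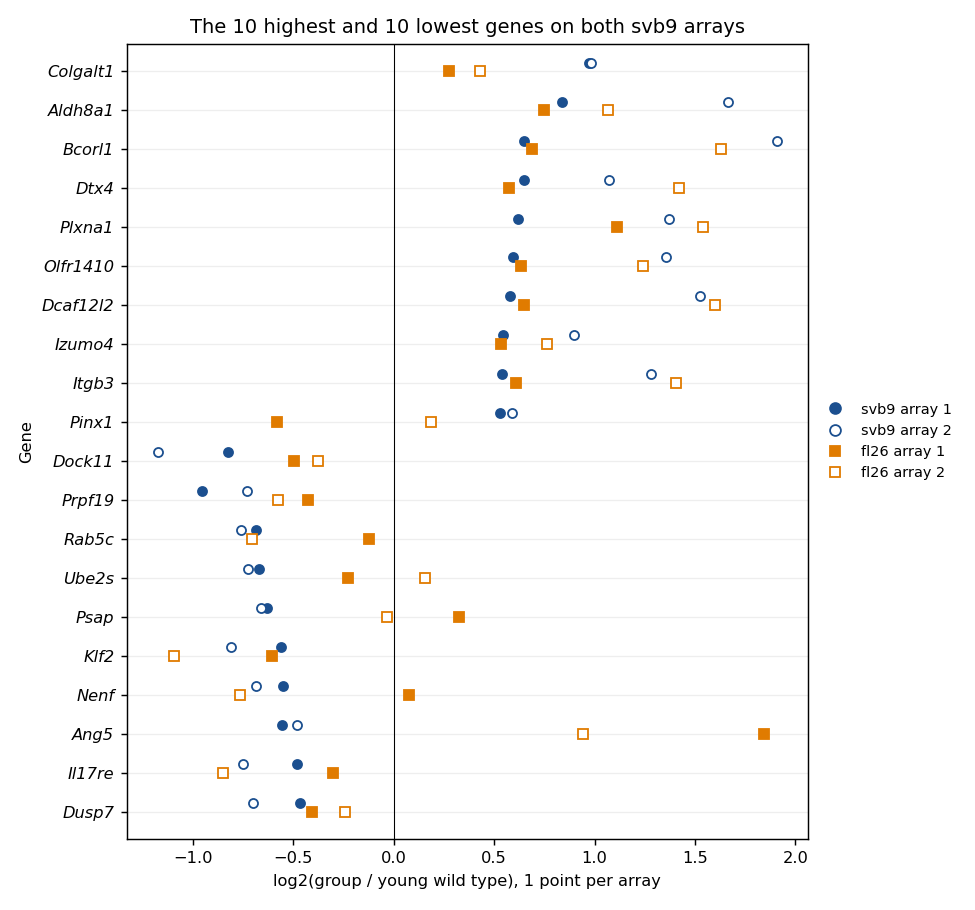
The log2 ratio over young wild type is on the x axis for the 10 genes highest and the 10 lowest on both svb9 arrays, with 1 point per array, circles for svb9 and squares for fl26, filled for array 1 and open for array 2. For most of the high genes the fl26 squares lie beside the svb9 circle of the same number, while Colgalt1, Pinx1, Dock11, Prpf19, Ube2s, Psap, Ang5 and Dusp7 separate the lines. All genes shown were picked by their svb9 values.

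Of the genes of the lipoxygenase pathway itself, those measured lay near wild type in svb9. Alox15b, the mouse counterpart of the transgene, had 1 probe, which gave red signal above background on 0 svb9 arrays and was not tested, and no probe carried the name Alox5. Alox15, the leukocyte-type lipoxygenase, had 0.04 and -0.16, with a 95% interval for the mean from -0.29 to 0.17. Alox12, the platelet lipoxygenase, had -0.07 and 0.45 (interval -0.19 to 0.56), with red intensities of 351 and 163 against green ones of 171 and 144. The epidermal lipoxygenase gene Alox12b had 0.12 and 0.02, Aloxe3 had 0.04 and -0.04, and Alox5ap, which presents arachidonic acid to 5-lipoxygenase, had -0.01 and 0.05. Alox15 and Aloxe3 were well above background in red on 1 svb9 array only, so their ratios are close to the floor of the assay.

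The list of lipoxygenase and leukotriene genes had 17 measured members, of which 6 were higher on both arrays, 2 were lower on both and 9 had opposite signs. Its median was -0.00, as over all genes, and that median turned sign under 5 of 19 alternative settings. Several of the 19 cannot move the svb9 mean of a gene with a value on both svb9 arrays. They are a changed variance model, the block on array number and an fl26 or old wild type array left out. This holds for every list median below. The members farthest from 0 with 1 sign on both arrays were Lta4h, the enzyme that makes leukotriene B4 (-0.07 and -0.18), Gpx4, which reduces lipid hydroperoxides (-0.01 and -0.20), and the leukotriene receptor gene Cysltr1 (0.17 and 0.02). On array 2, Lta4h and this probe of Cysltr1 were not well above background in red. A second probe of Cysltr1, well above background in red on neither array, had -0.05 and -0.07. None of the 17 had an unadjusted p under 0.05.

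Prostanoid genes, which act on the same substrate through cyclooxygenase, were more often lower than higher. Of 16 measured members 1 was higher on both arrays and 7 were lower (43.8%), against 28.2% of all genes, with a median of -0.06 that stayed below 0 under all 19 alternatives. Ptges, a prostaglandin E synthase, had -0.28 and -0.13, Cbr1, a carbonyl reductase, had -0.18 and -0.23, and Ptgs1, the constitutive cyclooxygenase, had -0.10 and -0.18. Ptgs1 was well above background in red on 1 array at most. Ptgs2, the inducible cyclooxygenase, was well above background in red on neither svb9 array and was not tested. Limma called 0 of the 16.

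PPAR targets and fatty acid oxidation genes split, with 10 of 27 higher on both arrays and 9 lower, and a median of 0.03. Angptl4, a lipase inhibitor induced by PPAR ligands, had 1.06 and 0.26, and the fl26 arrays had 0.93 and 0.54. Acaa1a, a peroxisomal thiolase, had -0.01 and -0.87, and the coactivator gene Ppargc1a had -0.08 and -0.52. For both of these genes the low value rested on array 2, and 2 other probes of Acaa1a had means of -0.16 and -0.02.

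Luminal and basal markers lay near wild type. Krt8, a keratin of luminal cells, had 0.04 and -0.15, and Krt18 had -0.29 and -0.17 with its red signal saturated on array 1. Among 21 luminal markers 9 were higher on both arrays and 5 lower, with a median of 0.05. Trpv6, a calcium channel, had -0.26 and -0.38 and the tight junction gene Cldn7 had 0.10 and 0.51.

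Basal markers had 4 of 22 higher on both arrays and 9 lower (40.9%), with a median of -0.05 that stayed below 0 under all 19 alternatives. Trp63, the transcription factor that maintains basal cells, had 0.06 and 0.10 in svb9 against 0.78 and 0.86 in fl26. The difference of -0.74 ± 0.11 had an adjusted p of 0.597 in limma, while its unadjusted 95% interval ran from -1.01 to -0.47. Krt5 had -0.15 and 0.05 and Krt14 had -0.13 and -0.11, again below both fl26 arrays (0.29 and 0.26 for Krt5, 0.43 and 0.04 for Krt14). The integrin genes Itga6 (-0.18 and -0.32) and Itgb4 (-0.08 and -0.27) were low on both svb9 arrays, and Krt15 (0.13 and 0.40) was high on both. In bulk RNA, fewer cells of a type and less RNA per cell cannot be told apart.

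**Figure D3:**
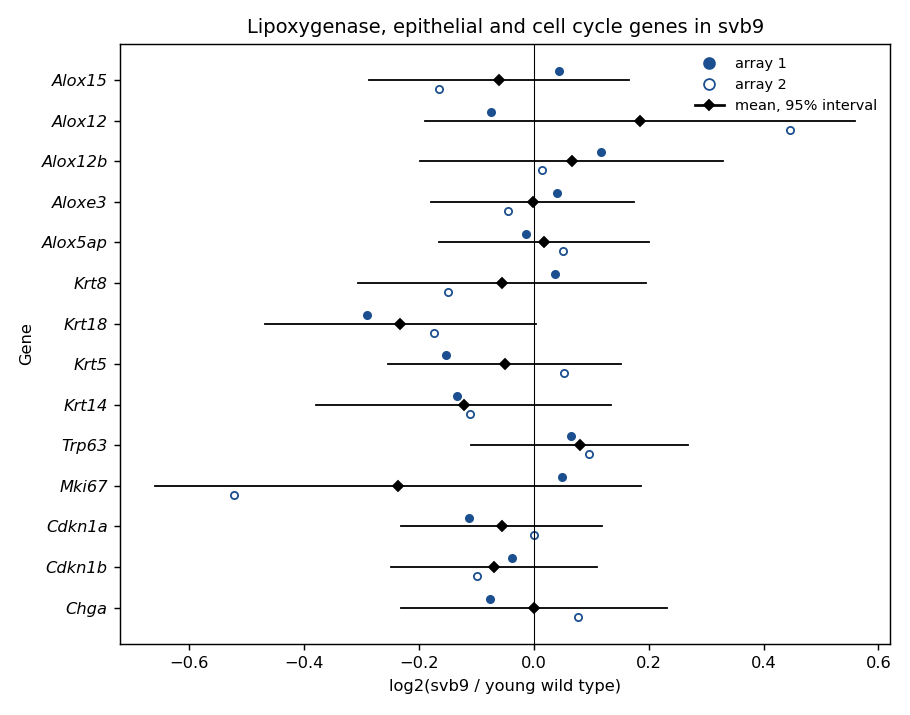
The log2 ratio of svb9 over young wild type is on the x axis for lipoxygenase, luminal, basal, cell cycle and neuroendocrine genes, with a filled circle for array 1, an open circle for array 2 and a diamond for their mean with its 95% interval from limma. Every interval includes 0, and the widest are those of Mki67 and Alox12, whose 2 arrays lie apart.

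The proliferation list was mixed. Its members farthest from 0 with 1 sign on both arrays were Mcm3, Mcm6 and Cdt1. Mcm3 had -0.24 and -0.45, Mcm6 had -0.29 and -0.33 and Cdt1 had -0.29 and -0.31, 3 genes that load or form the replicative helicase. In fl26 Mcm6 had -0.09 and -0.10 and Cdt1 had -0.05 and 0.18, so the svb9 values lay below those of fl26 for both. Mcm4, another helicase gene named after its values were seen, had 0.17 and 0.32, and a second probe of Mcm3 had a mean of -0.02. The list had 36 measured members, with 8 higher on both arrays and 14 lower (38.9%), and a median of -0.08. That median was 0.00 on array 1 and -0.10 on array 2, and it turned sign without svb9 array 2. Mki67, a marker of cycling cells, had 0.05 and -0.52 and was well above background in red on 1 array.

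Senescence and cell cycle inhibitor genes had a median of -0.00, with 9 of 26 higher on both arrays and 7 lower. Cdkn2c, which inhibits the kinases that drive entry into the cycle, had 0.19 and 0.60, and its second probe had 0.08 and 0.28. The chromatin protein gene Hmga1 had -0.14 and -0.61, and Mdm2, the ubiquitin ligase of p53, had -0.10 and -0.49. A second probe of Mdm2, well above background in red on 1 array only, had 0.10 and 0.08. Cdkn1a had -0.11 and 0.00 and Cdkn1b had -0.04 and -0.10, with 95% intervals from -0.23 to 0.12 and from -0.25 to 0.11. Neither Cdkn1a nor Cdkn1b was well above background in red on array 2. Cdkn2a was well above background in neither channel and was not tested.

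Of 30 fibroblast and matrix genes 14 (46.7%) were higher on both arrays, against 29.2% of all genes, and 3 were lower. The list median was 0.10, with 0.17 on array 1 and 0.04 on array 2, and it stayed above 0 under all 19 alternatives. Ogn, a small proteoglycan, had 0.35 and 0.42, Fbln1, a matrix glycoprotein, had 0.62 and 0.21, and the microfibril gene Fbn1 had 0.67 and 0.05. In the fl26 line Ogn had 0.73 and 0.47. Other probes gave means of 0.06 for Fbln1 and 0.16 for Fbn1.

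Smooth muscle genes had 8 of 19 (42.1%) higher on both svb9 arrays and 4 lower, and the median of 0.10 stayed above 0 under all 19 alternatives. Actc1, a muscle actin, had 0.23 and 0.53, Mylk, the myosin light chain kinase, had 0.12 and 0.64, and the tropomyosin gene Tpm1 had 0.20 and 0.34. Other contractile genes, named after their values were seen, were lower on both arrays, with Myl9 at -0.11 and -0.38, Tagln at -0.12 and -0.19 and Des at -0.03 and -0.20. The fl26 values were 0.24 and 0.15 for Actc1 and 0.03 and -0.08 for Tpm1. Other probes of Mylk had means of 0.08 and -0.28, and those of Tpm1 had means of -0.01 and 0.36. Limma called 0 members of the fibroblast and smooth muscle lists, and 3 of each had an unadjusted p under 0.05.

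Endothelial genes were more often lower, with 3 of 20 higher on both svb9 arrays and 10 (50%) lower, and a median of -0.03. Flt1, a receptor for vascular endothelial growth factor, had -0.34 and -0.36, while its 3 other probes, none of them well above background in red on both arrays, had means from -0.20 to -0.02. The junction gene Esam, not well above background in red on array 2, had -0.24 and -0.09. The lymphatic marker Lyve1 had 0.19 and 0.12. Of the 20 genes, 0 had an unadjusted p under 0.05.

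Immune lists were small in their shifts. Macrophage and complement genes had 11 of 27 (40.7%) higher on both arrays and 3 lower, with a median of 0.05 that turned sign without svb9 array 1 and with the date of feature extraction as a term. Apoe had 0.07 and 0.57, Lyz2, the lysozyme of macrophages, had 0.30 and 0.06, and Lgals3 had 0.07 and 0.25. In fl26 Lyz2 had 1.11 and 0.47. T and NK cell genes had a median of 0.02 over 15 measured members, B and plasma cell genes 0.02 over 11, and mast cell and granulocyte genes 0.04 over 9. In those lists 5, 3 and 1 members were well above background in both channels on both arrays. Erythrocyte genes had a median of -0.00 over 5 members.

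Interferon response genes were lower on both svb9 arrays in 16 of 36 cases (44.4%) and higher in 7, and the median was -0.11. It was -0.12 on array 1 and -0.04 on array 2 and stayed below 0 under all 19 alternatives. Rtp4, an interferon-induced chaperone of receptors, had -0.67 and -0.44, Ifit1, which binds foreign RNA, had -0.36 and -0.64, and Irf7, a transcription factor of the response, had -0.57 and -0.17. In the fl26 line Rtp4 had -1.51 and -0.62. Ifit1 and Irf7 were not well above background in red on both svb9 arrays. At an unadjusted p under 0.05 there were 5 members (13.9%, against 5.3% of all genes), and limma called 0.

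Antigen presentation genes of the MHC had 0 of 22 members higher on both svb9 arrays and 10 (45.5%) lower, with a median of -0.08. The median was -0.05 on array 1 and -0.06 on array 2 and stayed below 0 under all 19 alternatives. H2-M3 had -0.05 and -0.54, H2-T22 had -0.15 and -0.35 and H2-Ob, not well above background in red on array 2, had -0.09 and -0.22. These genes belong to families of close copies, so which member a probe read is uncertain. None of the 22 had an unadjusted p under 0.05.

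Chemokine and cytokine genes had 7 of 29 higher on both arrays and 5 lower, with a median of 0.00. Il33, an alarm cytokine of epithelium and stroma, had 0.61 and 0.18, Cxcl14 had 0.24 and 0.36, and Ccl6 had 0.36 and 0.12. For all 3 the fl26 values were higher, at 0.86 and 0.64 for Il33, 0.49 and 0.51 for Cxcl14 and 0.66 and 0.80 for Ccl6. The differences of -0.36, -0.20 and -0.49 had an adjusted p of 1.0 each.

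Metabolic lists differed in direction. Hypoxia and glycolysis genes had 10 of 22 (45.5%) higher on both svb9 arrays and 1 lower, and the median of 0.06 stayed above 0 under all 19 alternatives. Adm, a vasodilator peptide induced by low oxygen, had 0.17 and 0.54, Pgk1, a glycolytic kinase, had 0.39 and 0.27, and Car9, a carbonic anhydrase, had 0.10 and 0.47. A second probe of Pgk1 had 0.45 and -0.04. Retinoid genes had 9 of 22 (40.9%) higher on both and 0 lower, with a median of 0.03. Their leading members were Adh1 (0.11 and 0.40) and Aldh1a1 (0.22 and 0.24), enzymes of retinol oxidation, and Stra6 (0.32 and 0.13), the receptor for retinol-binding protein. A second probe of Adh1 had -0.01 and 0.09.

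Polyamine genes had 3 of 17 higher on both arrays and 8 (47.1%) lower, with a median of -0.04. Paox, a polyamine oxidase, had -0.06 and -0.96, the agmatinase gene Agmat had -0.28 and -0.18, and Arg2, a mitochondrial arginase, had 0.10 and 0.46. Agmat was not well above background in red on array 2. Cholesterol and fatty acid synthesis genes had 9 of 33 higher and 14 (42.4%) lower, with a median of -0.00 on array 1 and -0.10 on array 2. Srebf1, the transcription factor of fatty acid synthesis, had -0.31 and -0.61 and Hsd17b7, an enzyme of cholesterol synthesis, had -0.26 and -0.53. Both medians stayed below 0 under all 19 alternatives.

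Splicing factor genes had 16 of 38 (42.1%) lower on both svb9 arrays and 8 higher, with a median of 0.01 on array 1 and -0.15 on array 2. Cytosolic ribosomal protein genes had 23 of 66 lower and 6 higher, with medians of -0.15 and 0.12, and 22 of the 66 had a saturated spot. The splicing and ribosomal medians over both arrays were -0.10 and -0.07, and each turned sign when 1 svb9 array was left out. Mitochondrial respiratory chain genes had a median of -0.00, with Cox7a2 at -0.15 and -0.91, and proteasome genes had a median of 0.03.

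Of 27 androgen response genes 8 were higher on both arrays and 5 lower, and their median of -0.04 turned sign when either svb9 array was left out. Ell2, an elongation factor induced by androgen, had 0.25 and 0.58 with a second probe at a mean of -0.10, and Tpd52 had 0.22 and 0.56, while a second probe of Tpd52 had -0.19 and -0.24. Heat shock and immediate early genes had a median of -0.00. In that list Junb, a subunit of the AP-1 transcription factor, had 0.48 and 1.05 (mean 0.77 ± 0.15), but its second probe had 0.14 and -0.05.

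Over the 42 lists the medians in svb9 ran from -0.15 to 0.10. The lowest, that of ventral secretory genes, is the value of a saturated probe of Sbp and was 0.23 with saturated spots missing, and the next lowest was -0.11 for interferon genes. Of the 42 medians, 28 lay within 0.05 of 0, and limma called 0 members of any list. The median kept its sign under all 19 alternatives for 16 lists. Several of the 19 leave the svb9 means unchanged by design, so they add nothing to this count.

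**Figure D4:**
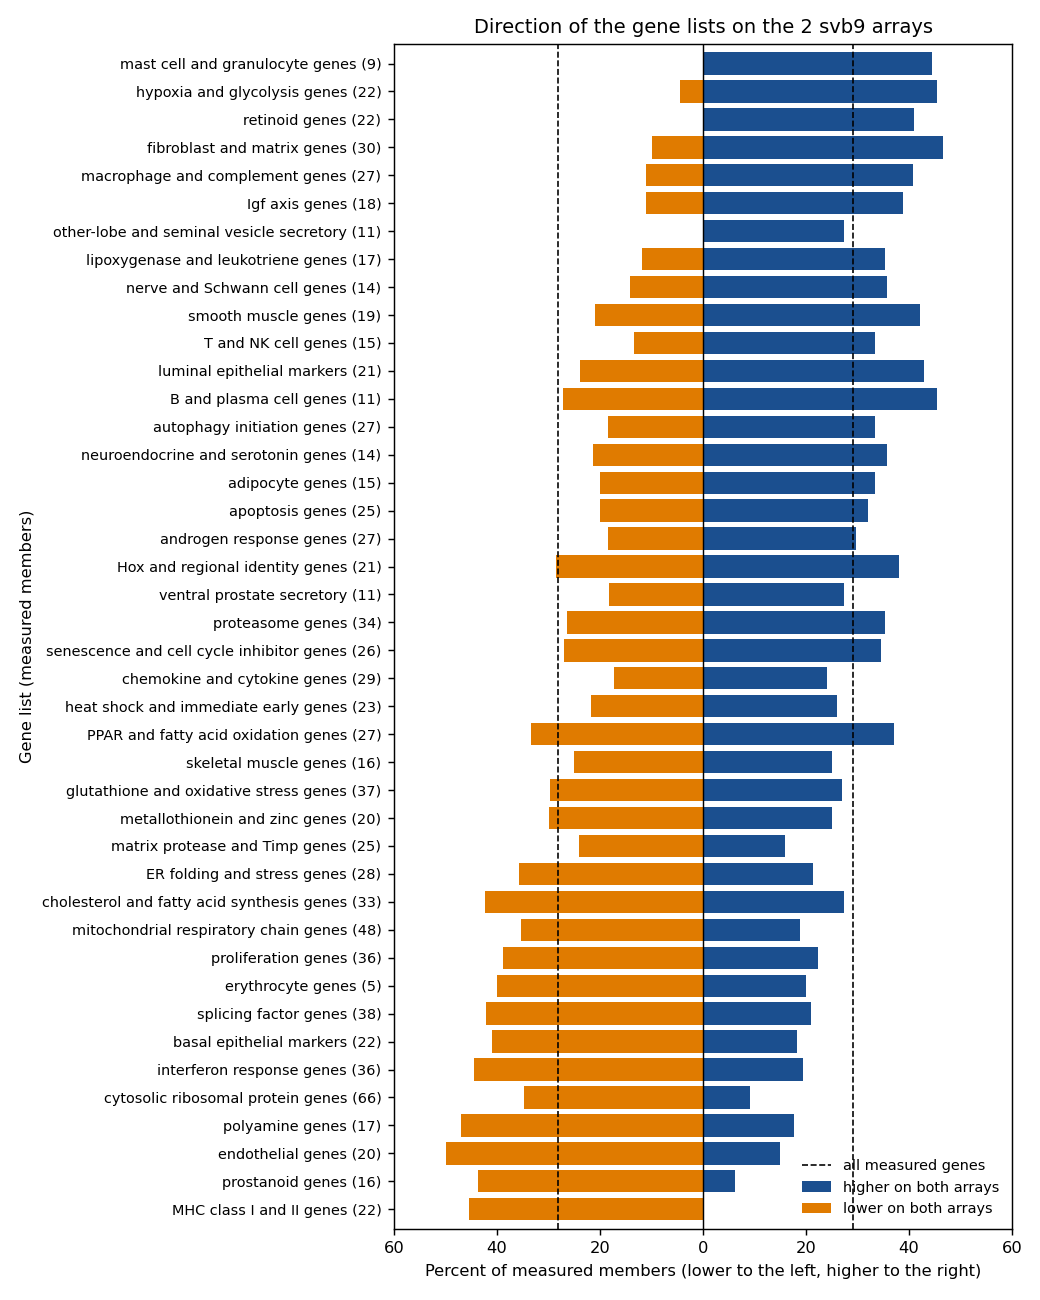
Bars give the percent of measured members of each list that were higher on both svb9 arrays (to the right) or lower on both (to the left), with the number of measured members in brackets and dashed lines at the shares over all measured genes (29.2% and 28.2%). Mast cell and granulocyte, fibroblast, hypoxia and retinoid genes lean to the right and MHC, prostanoid and endothelial genes to the left. In both channels on both arrays, 1 of 9 mast cell and granulocyte and 11 of 22 retinoid genes were well above background. So were 8 of 16 prostanoid and 11 of 20 endothelial genes. For fibroblast, hypoxia and MHC genes it was 29 of 30, 20 of 22 and 17 of 22. Of any list, 0 members passed the test.

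After normalization the median of the ventral secretory list lay farther apart on the 2 svb9 arrays than the median over all genes. The list of 11 measured members had a median of -0.47 on array 1 and 0.38 on array 2, and 5 members had a saturated spot. Of the 11, 6 had opposite signs on the 2 arrays, 3 were higher on both (Mt3, Psca and Tgm4) and 2 were lower on both (Ang and Defb50, the latter saturated). Pbsn had -1.34 and 1.26 and was not saturated. Its red and green intensities were 47150 and 42890 on array 1 and 26510 and 24110 on array 2, so the unnormalized channels were nearly equal on both arrays and the normalization gave them opposite signs. Msmb, beta-microseminoprotein, had -1.22 and 0.38 with a saturated spot, and the fl26 arrays had -0.67 and 0.95 for Pbsn. For Pbsn and Msmb these arrays thus give no direction in svb9.

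Genes of lower signal also lay apart. Itln1, an intestinal-type lectin, had -2.68 on array 1 and 1.42 on array 2. Its unnormalized intensities were 481 in red and 1181 in green on array 1. On array 2 they were 496 in red and 290 in green. The median red signal over all spots but controls was 154 on array 1 and 90.2 on array 2, and the green 87.8 and 67.4. Like red intensities on the 2 arrays are therefore not like levels, and which channel set the arrays apart cannot be read from them. Pnliprp1, a lipase of the pancreatic family, had -1.65 and 1.15, with green intensities of 234 and 84.1, and red ones of 174 and 171. The zinc exporter gene Slc30a2 had -1.18 and 0.81, and the fast troponin gene Tnni2 had -0.59 and 0.71. For Itln1, Pnliprp1, Slc30a2 and Tnni2 the unnormalized green intensity was higher on array 1 than on array 2, by a larger factor than the red. Defb1, a bright defensin gene, had -0.82 and 0.53, and its second probe had -0.80 and 0.42.

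In the opposite direction, Pigr, the receptor that carries immunoglobulin A into secretions, had 0.61 on array 1 and -0.93 on array 2. Its red intensity was 23250 on array 1 and 1344 on array 2, while the green was 5632 and 4857. Ramp2, a partner of the adrenomedullin receptor, had 0.06 and -1.46, Aldh3a2, a fatty aldehyde dehydrogenase, had 0.91 and -0.52, and Hspa13, a heat shock family member, had 0.61 and -0.85. Helz had 0.35 and -1.09 and Mfsd6 had -0.05 and -1.32. At these probes the fl26 arrays of the same number had similar values (0.38 and -1.16, and -0.29 and -1.05). A second probe of Mfsd6, well above background in both channels on both svb9 arrays, had 0.03 and 0.16, without the low value. A second probe of Helz, well above background in red on 1 svb9 array only, had 0.03 and -0.48. For Ramp2 the fl26 arrays had 0.15 and 0.31, so its low value was on 1 of these 4 arrays, and a second probe of Ramp2 had a mean of 0.04 in svb9.

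Set against the full-length line, svb9 had no probe past the test without the block. Limma called 0 of 27858 probes (0%) for svb9 minus fl26, with a smallest adjusted p of 0.220, and 607 (2.18%) had an unadjusted p under 0.05. With the array number as a block it called 10 probes, 2 higher in svb9 and 8 lower, among them 2 probes of Rb1cc1 (adjusted p = 0.0173 and 0.0287) and 1 each of Ang4 (0.0418), Gabra4 and Tph1 (0.0465 each). The 5 genes with the smallest p were those in which fl26 lay far from wild type and svb9 near it.

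Rb1cc1, a subunit of the kinase complex that starts autophagy, had 0.19 and 0.05 in svb9 and 2.51 and 2.01 in fl26. The difference was -2.14 ± 0.18, with an unadjusted 95% interval from -2.58 to -1.70 and an adjusted p of 0.220. Its other 4 probes had means from -0.30 to 0.13 in svb9 and from 0.31 to 1.83 in fl26. Psmc3ip, a gene of meiotic recombination, had 0.23 and 0.02 in svb9 and -2.49 and -1.79 in fl26, a difference of 2.27 ± 0.24 (adjusted p = 0.355), and a second probe had means of 0.04 and -1.20. Tph1, the first enzyme of serotonin synthesis, had 0.42 and 0.11 against 1.68 and 1.47, and its second probe had 0.19 and -0.16 in svb9. These 3 genes were picked for their small p in this contrast, so the lack of overlap between the lines follows from the choice.

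Gabra4, a subunit of the GABA receptor, had -0.32 and -0.26 in svb9 and 0.68 and 0.89 in fl26, a difference of -1.07 ± 0.12 (adjusted p = 0.355). The angiogenin ribonucleases followed 1 pattern. Ang4 had -0.51 and -0.19 against 1.64 and 1.30, Ang had -0.42 and -0.14 against 1.49 and 1.24, and Ang5 had -0.56 and -0.48 against 1.84 and 0.94. The adjusted p was 0.355 for Ang4, 0.597 for Ang and 0.987 for Ang5. These genes are close copies of each other, so their probes may read shared transcripts and do not count as 3 separate observations.

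Igfbp2, a binding protein of insulin-like growth factors, had 0.49 and 0.40 in svb9 and -0.36 and -0.71 in fl26 (difference 0.98, adjusted p = 0.676). Creb3l4, a membrane-bound transcription factor, had -0.22 and -0.63 against -1.71 and -1.54, so it was below wild type in both lines and lower in fl26. The difference of 1.19 had an adjusted p of 0.597. Clu, clusterin, a secreted chaperone, had 0.99 and 0.09 in svb9 and 1.52 and 2.62 in fl26, and Calca, the calcitonin gene, had 1.10 and 0.25 against 1.92 and 1.29, with a second probe at a mean of -0.05 in svb9. For Clu and Calca svb9 array 2 lay near wild type while the other 3 arrays lay above it.

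**Figure D5:**
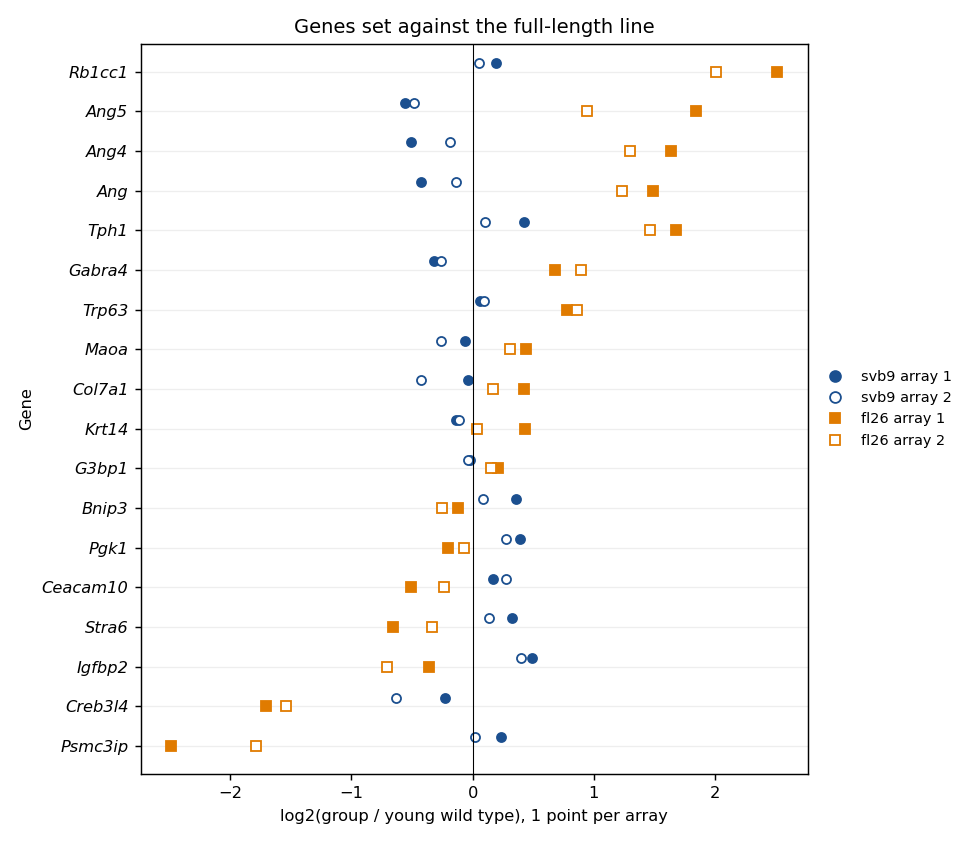
The log2 ratio over young wild type is on the x axis, with 1 point per array, circles for svb9 and squares for fl26, filled for array 1 and open for array 2, for the genes ordered by svb9 minus fl26. The circles lie between -0.63 and 0.49 while the squares reach 2.51 for Rb1cc1 and -2.49 for Psmc3ip, and none of the differences passed the limma test without the block.

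Over all genes with values on these 4 arrays, 767 of 13657 (5.62%) had both svb9 arrays of 1 sign and both fl26 arrays of the other. Of them, 376 (2.75%) were higher in svb9 and 391 (2.86%) lower. Among lists, the median of svb9 minus fl26 was -0.19 for macrophage and complement genes, -0.15 for fibroblast genes, -0.14 for basal markers and 0.09 for interferon genes, against -0.01 over all genes. Limma called 0 members of these lists in that contrast.

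Against old wild type, where age differs as well as genotype, limma called 0 of 27624 probes (0%), with a smallest adjusted p of 0.724 and 1301 probes (4.71%) at an unadjusted p under 0.05. The 5 genes with the smallest p had svb9 nearer to young wild type than the old group was. They were picked for their small p in this contrast, so a wide gap between the groups follows from the choice. Stra6 had 0.32 and 0.13 in svb9 and 1.81 and 1.5 in old wild type, and Col7a1, the collagen of anchoring fibrils, had -0.04 and -0.43 against 1.01 and 1.29. The stress granule gene G3bp1 had -0.02 and -0.03 against 0.75 and 0.69, with a second probe at a mean of 0.25 in svb9, and Zfp932, a zinc finger gene, had 0.06 and 0.06 against 0.89 and 0.74. Fgl1 had 0.50 and 0.73 against 2.02 on the 1 old array that gave a value. Few probes of the old group had red signal well above background, 3218 on its array 1 and 13596 on its array 2, and the part of this in the differences was not tested.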

How the data were processed

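Spot intensities were deposited by the authors without normalization: the files hold, for red and green, a mean intensity and a median background per spot. Per the file headers the scanner software was Agilent Feature Extraction A.7.5.1. The log10 ratios that it wrote, as deposited by the authors, served as an alternative. From the intensities, control and outlier-flagged spots were dropped, saturated spots kept, background corrected by normexp (offset 50), ratios normalized by loess within each array and spots of a probe averaged, in R 4.3.3 with limma 3.58.1. Symbols came from a GRCm38.p6 gene table for 20716 probes, used for names only, and otherwise from the files. A gene is given by its probe of highest mean intensity.

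limma fitted 3 group means to all 6 arrays (lmFit, eBayes). svb9 was tested 2-sided against 0, fl26 and old wild type, with Benjamini-Hochberg adjustment over the probes tested and a threshold of 0.05. Standard errors pool the spread of all 6 arrays. The pools behind duplicates may or may not be independent animals for wild type, so p-values measure the spread between these samples. Arrays of the same number deviated together from their group means (r = 0.61 for svb9 and fl26, 0.17 for svb9 and old wild type, 0.33 for fl26 and old wild type), so the number was treated as pairing the arrays, from the data and not the labels, and calls that a block on it adds are printed with the results. The svb9 and fl26 arrays shared the date of feature extraction for array 1 but not for array 2. Named genes were a panel, the 5 genes with the smallest p in each comparison, since none passed, the 10 highest and lowest on both arrays, the 6 most discordant each way and up to 3 leading members per list. Members and lists were chosen with earlier results of these data known. Alternatives changed the background correction, normalization, filters, saturated and outlier spots, variance model, arrays fitted, extraction date, replicate block and probe summary. Changes of the variance model, of the fl26 or old wild type arrays fitted, and the replicate block leave the svb9 means as they were where both svb9 arrays have a value. The script was tested on simulated data. Some panel genes are not reported here.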

Additional observations from a re-analysis of the deposited data

Results flagged for a closer look

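Of 152 named genes with unsaturated signal well above background, 14 had both svb9 arrays on one side of young wild type and both fl26 arrays on the other. Over all genes with values on these arrays, dim and saturated ones included, the share was 5.62%. Many named genes were chosen for 1 sign on both svb9 arrays, or for a small p against fl26. The 14 of 152 therefore cannot be set against that share. The difference between the lines passed the limma test for none of the 14. With the array number as a block it passed for Gabra4 and Psmc3ip, and for a second probe of Ang4. Below fl26 were the angiogenin genes Ang5 (svb9 minus fl26 -1.91), Ang4 (-1.82) and Ang (-1.64), Gabra4 (-1.07), Maoa, which breaks down serotonin (-0.53), Col7a1 (-0.53), Krt14 (-0.36) and G3bp1 (-0.21). Above fl26 were Bnip3, a mitophagy gene (0.41), Pgk1 (0.47), Ceacam10, a seminal vesicle secretory gene (0.60), Stra6 (0.72), Igfbp2 (0.98) and Psmc3ip (2.27). For G3bp1 the svb9 values were -0.02 and -0.03. With 2 arrays a group, no array could be tested as standing apart from its group.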

How the results depend on the processing

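The count of svb9 probes called against young wild type was 0 under every alternative except the replicate number as a block, and with each array left out in turn it was 0 to 0 in all 3 comparisons. With the replicate block limma called 12 probes in svb9 (10 higher, 2 lower), among them those of Aldh8a1, Bcorl1, Plxna1, Dcaf12l2, Itgb3 and Olfr1410 as higher and of Dock11 and Dnajc1 as lower, all at an adjusted p of 0.0497. For svb9 minus fl26 the block called 10 (2 higher, 8 lower), with 2 probes of Rb1cc1 lower and Psmc3ip higher, and for old wild type 0. The block changed no other count of calls. With the extraction date as a term, svb9 minus fl26 had 2 calls, both probes of H2-Q10; the cause was not tested.

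The count at least 1.5-fold on both arrays, 9 higher and 10 lower, was 24 and 50 with the Feature Extraction log ratios, whose cause was not tested, and 4 and 5 with 1 mean value per gene, which tests fewer features. Chosen after seeing the data, 1.25-fold gave 86 and 101 and 2-fold gave 0 and 0. Median centring moved the array medians by -0.45 to 0.35. Of 186 named genes, 154 kept their sign under all alternatives, several of which cannot move an svb9 mean. Red signal over background limits svb9 array 2, and saturation limits the brightest secretory genes.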
